A study of Mus musculus with 18 samples.

Results

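The regions described here were called far from genes by macroH2A2-GFP ChIP in mouse fibroblasts after 24h of doxycycline. They were the regions of the authors' 24h list without drug that lie on an autosome and 10 kb or more from any annotated gene, counting genes of every biotype in RefSeq GRCm38.p6. Of 44827 regions in the 24h list, 44393 were on the 19 autosomes, and 11940 of these (26.9%) met the rule. They are called the intergenic regions below. The other autosomal regions were 22787 that touched a gene and 9666 that lay within 10 kb of one. They were thus chosen by a measured value, the presence of a call in the 24h library, together with their distance to genes. Width, score and distance come from the same list and are given as a description only.

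The cells were immortalized dermal fibroblasts (iDF), made with SV40 from newborn (P0) male mice of the 129/S6 background and grown for 20-30 passages. All of them carried a macroH2A1/2 double knockout and a dox-inducible macroH2A2-GFP transgene, so every doxycycline library, control libraries included, came from cells labelled as lacking the native histones. The 0h cells received no doxycycline, and the others had 0.5 ug/ml of it during 6h, 24h or 5d. One further culture had 24h of doxycycline with 0.5 uM flavopiridol for the last 18 hours. Flavopiridol inhibits CDK9, the kinase that releases paused RNA polymerase II. The cultures written here as 6h GSK126 and 24h GSK126 had 5 uM GSK126 for 10 days before doxycycline. GSK126 inhibits Ezh2, the methyltransferase that places H3K27me3. Native ChIP with GFP-Trap beads after MNase digestion gave 1 library for each of these 7 conditions. H2A.Z was profiled in 1 library of wild type primary dermal fibroblasts from female newborns, a different cell, sex and genotype. Poly(A) RNA-seq of the same iDF line had 3 replicates each at 0h, 6h and 24h, without drug.

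MacroH2A histones are H2A variants with a large globular macrodomain joined to the histone fold by a linker. They form broad domains, are enriched on the inactive X chromosome and at many silent developmental genes, and are depleted from most transcribed gene bodies. The study asked how such domains are laid down and trimmed after new histone is made. DNA far from genes bears on that question because it carries little annotated transcription. H2A.Z is another H2A variant, best known from promoters and enhancers. No genome sequence of the build was used, so no bases of these regions are printed, only their positions on GRCm38.

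H2afy2 RNA followed the labelled times. H2afy2, the gene of macroH2A2, had TMM-normalized CPM of 10.5, 25.3 and 9.61 at 0h, 823, 833 and 805 at 6h, and 1741, 1713 and 1727 at 24h, a log2 increase of 6.84 ± 0.14 (SE) at 24h (n = 3 against 3, edgeR quasi-likelihood test, adjusted p = 3.95e-24). H2afy, the gene of macroH2A1, stayed at 51.5 to 60.6 CPM in all 9 libraries. The deleted part of each gene is not given in the sources used here, so its remaining counts do not check the knockout. All 10 fibroblast markers were above 1 CPM, from 11.5 CPM for Pdgfra to 4401 CPM for Vim, with a summed level of 13538 to 15059 CPM over the libraries. Krt5, Adgre1, Dct, Tyr and Myod1, which mark keratinocytes, macrophages, melanocytes and muscle, were at 0 in all 9. Of the other markers, 2 of 4 for keratinocytes were at 1 CPM or more (summed level 6.78 to 8.95 CPM, highest Krt10 with a mean of 5.79), as was 1 of 3 for immune cells (Cd68, 2.26 CPM). None of the 3 endothelial markers reached 1 CPM, with Kdr at 0.989. The RNA libraries held 29338093 to 37793178 counts over genes.

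The intergenic regions together spanned 91.0 Mb, or 25.2% of the bases in autosomal 24h regions. Their median width was 5.20 kb, with quartiles of 3.40 and 8.60 kb and a range of 0.200 to 198 kb. Regions that touched a gene had a median of 5.60 kb and those within 10 kb of a gene 4.80 kb. Of the intergenic regions 20.2% were 10 kb or wider, against 24.4% of those touching a gene and 16.8% of those within 10 kb of one. A wide region is more likely to reach a gene, so these shares depend on the rule.

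The authors gave each region a whole-number score whose reference is not given in the sources used here. Scores are not compared between lists. Where another list is limited by score below, the limit is the median score of that list. It was 1 in 54.7% of the intergenic regions, 2 in 35.9% and 3 or more in 9.34%, with a maximum of 10. In regions that touched a gene the score was 1 in 49.5%. High scores were found in narrow regions: the 219 intergenic regions with a score of 4 or more had a median width of 2.60 kb, against 5.20 kb at score 1.

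The nearest gene lay a median of 32.3 kb away, with quartiles of 17.7 and 66.6 kb and a maximum of 725 kb. The nearest protein-coding gene lay a median of 96.3 kb away, so most of these regions were flanked first by a long non-coding RNA gene or a pseudogene. A lncRNA gene was nearest to 35.9% of them, a protein-coding gene to 29.5% and a pseudogene to 26.4%. Of all autosomal DNA 10 kb or more from genes, 31.3%, 23.6% and 34.3% lay nearest to these biotypes. The many lncRNA and pseudogene neighbours are thus also a feature of the annotation. At the border of the rule, the 3 regions just inside had 10.01 kb to the nearest gene, and lay beside Snai2, Metrnl and Gm11498. The 3 just outside had 9.990 to 9.996 kb, beside Mir205hg, Gm40736 and Gm5481.

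The widest intergenic region was chr15:62318401-62516400 (198 kb, score 2), with Pvt1, a long non-coding RNA gene, 58.2 kb to its left. Regions of the 0h list covered 98.0% of its bases, those of 6h 99.1%, of 5d 98.9%, of flavopiridol 94.4% and of 24h GSK126 99.1%, while H2A.Z regions covered 10.0%. The second widest was chr5:53353201-53509000 (156 kb), between Smim20 and Gm40304, with 81.8% of its bases in 0h regions and 98.7% in flavopiridol regions. The next were chr17:61558801-61706800 (148 kb), chr10:12130001-12264000 (134 kb) and chr15:11480801-11611800 (131 kb, 81.1 kb from Tars, a tRNA synthetase gene). All 10 of the widest had 83.9% or more of their bases in 24h GSK126 regions, 86.4% or more in flavopiridol regions and 71.0% or more in 0h regions. The widest regions were therefore also called in the library without doxycycline.

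The region with the highest score, 10, was chr15:33722601-33723600, which is 1.00 kb wide and 34.7 kb from Tspyl5. It had no base in a 0h region, 80.0% in 6h, 5d, flavopiridol and 24h GSK126 regions, and 20.0% in 6h GSK126 regions. The next were chr1:88595201-88596800 and chr14:63560401-63561600, both with a score of 8 and a width under 2 kb. None of the 10 highest-scoring regions had a base in an H2A.Z region. An H2A.Z region touched 16.9% of all intergenic regions with a score of 4 or more and 11.0% of those under 2 kb wide. With shares that low, 10 regions are too few to set the highest scores apart. The 5 regions farthest from genes all lay in 1 gene-free stretch of chromosome 4, the farthest at chr4:29921601-29927600, 725 kb from Gm11919.

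Region calls were compared by touching, meaning 1 shared base or more. There was 1 ChIP library per condition, so no test between conditions was made and every difference below has no replicate check. Exact Clopper-Pearson 95% intervals cover counting error over regions only. The read depth behind each list was not used here, and the lists differ in length, from 28980 regions at 0h to 79959 at 6h GSK126, and that difference can move any share.

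The intergenic regions kept a call at 5d more often, and a call under flavopiridol less often, than 24h regions at genes. A 5d region touched 88.1% of them (95% interval 87.5 to 88.7), against 78.7% of regions that touched a gene, 80.6% of those within 10 kb and 81.7% of all autosomal 24h regions. A flavopiridol region touched 68.7% (67.9 to 69.5), against 79.0%, 77.8% and 76.0% in the same order. A 24h GSK126 region touched 81.4% (80.7 to 82.1), against 77.5%, 78.5% and 78.8%. The intervals of the intergenic regions do not overlap those of either other class in these 3 lists. These intervals treat regions as independent, while many intergenic regions lay close to another one. Without replicate libraries, the lack of overlap is therefore a description and cannot decide whether the classes differ.

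A 6h region touched 75.4% of the intergenic regions (74.6 to 76.1), against 77.7% of regions touching a gene, 75.0% of those within 10 kb and 76.5% of all. A 6h GSK126 region touched 75.5%, against 80.0%, 75.4% and 77.8%, and with only 24h regions at or above the median score it touched 87.3%, against 87.0% of the other 24h regions. A 0h region, from the culture without doxycycline, touched 51.0% (50.1 to 51.9), against 51.4% of regions touching a gene, 48.8% (47.8 to 49.8) of those within 10 kb and 50.8% of all. Whether a region with a 0h call holds macroH2A2-GFP was not tested. H2A.Z regions of the primary fibroblasts touched 22.5% (21.7 to 23.2), against 29.2% of regions touching a gene, 31.8% of those within 10 kb and 28.0% of all.

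**Figure D1:**
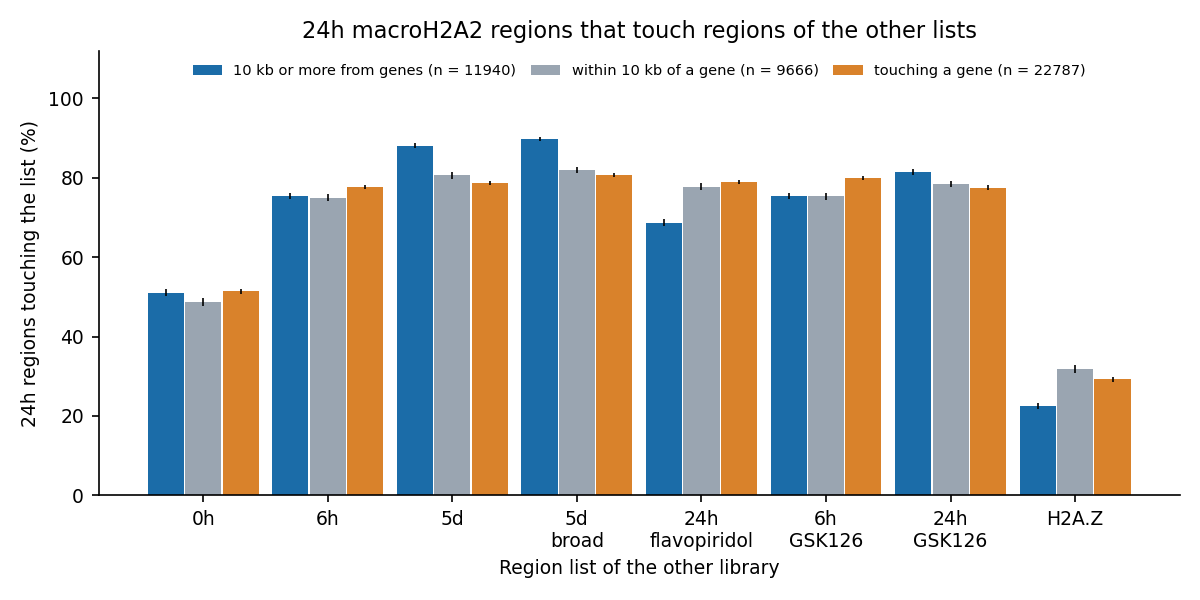
Percent of 24h regions (y axis) that share 1 base or more with each other region list (x axis), for the intergenic regions, regions within 10 kb of a gene and regions touching a gene; bars are shares of regions and lines are exact 95% intervals over regions. The intergenic bars are the highest of the 3 at 5d (88.1%) and 24h GSK126 (81.4%) and the lowest for flavopiridol (68.7%) and H2A.Z (22.5%).

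Each chromosome gave the same order for the 5d, flavopiridol, H2A.Z and 24h GSK126 lists. The share touching 5d regions was higher in the intergenic regions than in all other 24h regions on 19 of 19 autosomes, by 2.90 to 13.3 percentage points. The share touching flavopiridol regions was lower on 19 of 19, with differences of -17.3 to -1.50 points, and that touching H2A.Z regions was lower on 19 of 19. The share touching 24h GSK126 regions was higher on 19 of 19, by 1.60 to 6.70 points. For 6h regions the intergenic share was lower on 14 and higher on 5, and for 0h regions it was higher on 13 and lower on 4. For 6h GSK126 regions it was lower on 18 and higher on 1. Chromosomes are not replicates, since those of 1 library were sequenced and called together.

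**Figure D2:**
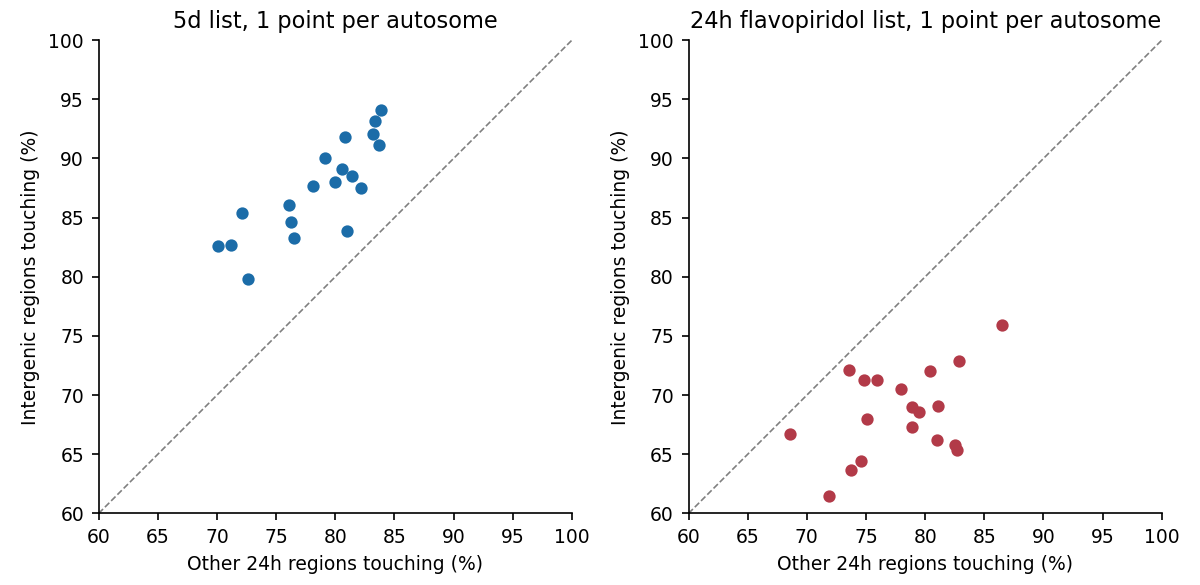
Percent of intergenic 24h regions touching the 5d list (left) or the 24h flavopiridol list (right) against the percent of all other 24h regions doing so, with 1 point per autosome; the dashed line marks equal shares. All 19 points lie above the line for 5d and all 19 lie below it for flavopiridol.

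Chromosomes 8, 15 and 17 stood apart in the deposited 24h list. Its running numbers skipped 2593 values on autosomes, and 70.6% of these were on those 3 chromosomes, which held 1978 (16.6%) of the intergenic regions. The share touching 0h regions ranged from 31.1% on chromosome 1 to 72.0% on chromosome 17. Without chromosomes 8, 15 and 17 a 5d region touched 87.1% of the intergenic regions, against 78.4% of the others. A flavopiridol region then touched 68.3% against 77.6%.

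The difference was as large or larger within each width class under 8 kb and small in wide regions. Among regions 2 to 4 kb wide, a 5d region touched 81.1% of the 3148 intergenic regions and 63.9% of the 5726 that touched a gene. A flavopiridol region touched 54.4% against 67.3%. At 4 to 8 kb the shares were 86.6% against 75.4% for 5d and 64.3% against 75.4% for flavopiridol. At 16 kb or more nearly all regions of either class touched both lists, with 99.8% against 99.7% for 5d and 97.9% against 98.9% for flavopiridol. An H2A.Z region touched 46.8% of the intergenic regions of that width and 59.5% of those touching a gene.

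**Figure D3:**
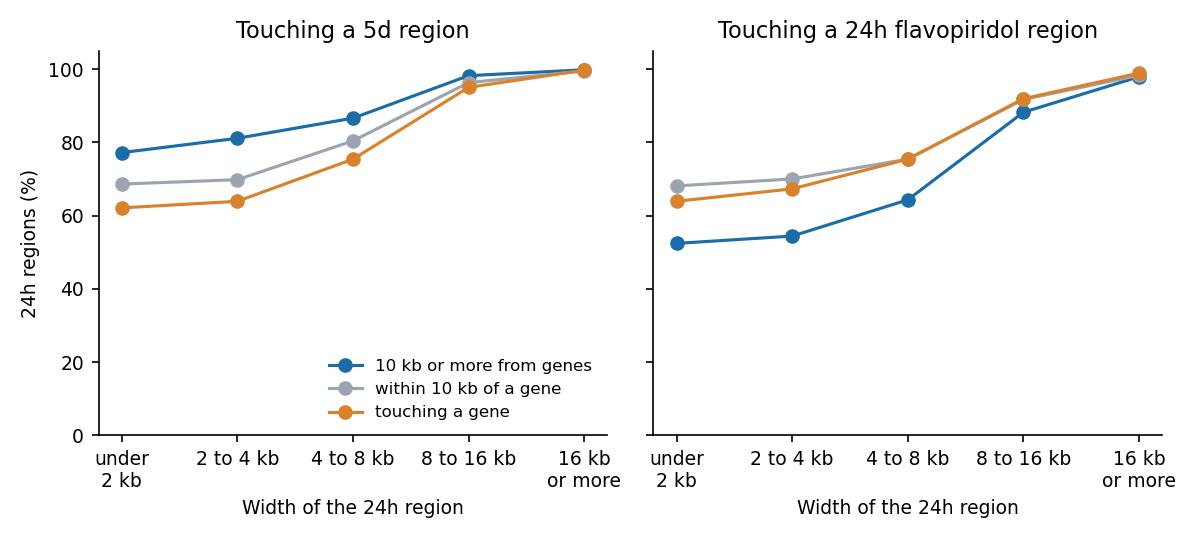
Percent of 24h regions touching a 5d region (left) or a 24h flavopiridol region (right) by the width of the 24h region, for the 3 classes of distance to genes. At 2 to 4 kb the intergenic points are at 81.1% and 54.4% and those of regions touching a gene at 63.9% and 67.3%, while at 16 kb or more all points are at 97.9% or more.

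Without the 24h regions that touched a 0h region, the differences at 5d, under flavopiridol and under 24h GSK126 were larger. Of the 5845 intergenic regions without a 0h call, 78.0% touched a 5d region, against 62.0% of the other 24h regions without one. A flavopiridol region touched 51.7% against 65.0%, a 24h GSK126 region 68.1% against 61.8%, and a 6h region 60.5% against 63.1%.

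Distance from genes went with the 5d and 6h shares and not with the flavopiridol share. From regions 10 to 20 kb from a gene to those 100 to 200 kb away, the share touching 5d was 84.7% and then 92.9%, and that touching 6h 71.3% and then 81.4%. At 200 kb or more they were 91.1% and 79.4%. The flavopiridol share was between 68.0% and 69.8% in all 5 distance classes, up to 200 kb and beyond. Width and score shifted with distance too. From 10 to 20 kb to 100 to 200 kb the median width was 4.80 and then 5.80 kb, and the mean score 1.64 and then 1.46. At 200 kb or more they were 5.60 kb and 1.34. The part of width and score in these shares was not tested. The score went with the 6h and flavopiridol shares and hardly with the 5d share. At score 1 a 6h region touched 65.6%, a flavopiridol region 60.3% and a 5d region 86.9%. At score 3 these shares were 91.2%, 83.1% and 89.4%.

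Taking 0h, 6h and 5d together, the largest group was called at every time. It held 5395 intergenic regions (45.2%), and the same pattern held 44.3% of the other 24h regions. Regions first called at 24h that were called again at 5d made up 13.3% of the intergenic regions and 10.5% of the others. Regions called at 6h and 24h and not at 0h or 5d made up 4.72% of the intergenic regions and 11.1% of the others. Of the intergenic regions, 725 (6.07%, against 7.66% of the others) touched no 0h, 6h or 5d region. None of the 6 other macroH2A2 lists made with the same window touched 371 (3.11%, against 3.23%).

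The 2 drugs divided the 24h regions differently by class. A call under GSK126 but not under flavopiridol at 24h was found for 2287 intergenic regions (19.2%), against 11.3% of the other 24h regions. The reverse was found for 773 (6.47%), against 12.1%. Regions called at 6h and not under flavopiridol, whose last 18 hours followed 6h of doxycycline alone, made up 16.3% of the intergenic regions and 9.93% of the others. Both drug libraries share the 24h library without drug as their comparison.

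Among the regions that lacked a call under a drug, the widest intergenic region with no flavopiridol call was chr15:51491401-51532600 (41.2 kb, 15.8 kb from Gm2361), with 96.6% of its bases in 0h regions, 96.6% in 5d regions and 72.8% in 24h GSK126 regions. Next was chr17:16625401-16649200 (23.8 kb), with 100.0% of its bases in 0h regions and 95.8% in 5d regions. The third, chr7:66605601-66628000 (22.4 kb, 16.6 kb from Asb7), had no base in a 0h region and 35.7% in 24h GSK126 regions. The widest with no 24h GSK126 call was chr4:68483201-68504400 (21.2 kb, between Gm12911 and Brinp1), with no base in a 0h region, 63.2% in 6h regions, 78.3% in 5d regions and 45.3% in flavopiridol regions. The widest touching neither 6h nor 5d was chr12:16499801-16512600 (12.8 kb, score 2), 23.1 kb from Lpin1, and no other list had a base in it.

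Where a call was shared, the summed width of the touching regions was more often above that of the 24h region at 5d than at 6h. Wide regions touch more readily, and 16.6% of the sums at 5d took in 2 or more regions, so the sums cannot tell whether regions widened. All regions 10 kb or more from genes had a median width of 4.80 kb in the 5d list and 4.20 kb in the 6h list, against 5.20 kb at 24h. The 5d regions that touched an intergenic region had a median of 7.60 kb in total per region against 5.60 kb for the 24h region itself, and 61.9% were wider than it. The flavopiridol regions that touched one were wider in 60.2% and those of 24h GSK126 in 59.2%. At 6h 39.3% were wider, at 6h GSK126 27.9% and at 0h 35.5%.

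Many intergenic regions lay close to another one. The gap to the next one had a median of 10.2 kb, and 38.4% of the gaps were 5 kb or less. The authors also called the 5d library in windows of 1000 bases, allowing gaps of 4000, which gave 13864 broad domains on autosomes. A broad domain touched 89.8% of the intergenic regions, against 80.6% of regions touching a gene and 83.4% of all. Of the broad domains 4710 held an intergenic region, and 478 held 5 or more, which took in 30.2% of all intergenic regions. One domain of 731 kb held 30.

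Gene-free stretches differed widely in how many regions they held. The autosomes had 12989 stretches of DNA 10 kb or more from genes, and 3734 of them (28.7%) held an intergenic region. Every gap between genes longer than 20 kb counts, so many stretches can have little room for a region. The part of stretch length in this share was not tested. Of 191 stretches of 500 kb or more, 115 held none, though assembly gaps were not mapped here. The stretch with the most regions, 42, was chr10:15807066-16364797, between Nmbr, a bombesin receptor gene with 0.316 CPM, and Cited2, a transcriptional coregulator gene with 369 CPM at 0h. In it 24h regions covered 73.6% of bases, 5d regions 76.5%, flavopiridol regions 66.1% and 0h regions 39.1%. The chromosome 4 stretch between Epha7, an ephrin receptor gene, and Map3k7, a kinase gene, at chr4:29196279-30664595 held 41, with 22.1% of bases covered at 24h and 32.3% at 5d. These and the next are the nearest protein-coding genes on each side, and other genes can lie closer. The positions of the stretches run from gene edge to gene edge, so they include the 10 kb beside each gene. The stretch chr8:6223963-7001877, between Slc10a2, listed at 0, and Efnb2, an ephrin gene with 124 CPM, held 38. Between Adam34l, with no RNA value, and Fat1, an atypical cadherin gene with 673 CPM, chr8:44048370-44747478 held 37, with 78.9% covered at 24h. The stretch chr11:91831389-92769979, between Kif2b and Car10, both at 0 CPM, also held 37, with 35.5% covered at 24h. Between Celf2 and Gata3 (chr2:7396342-8147199) 24h regions covered 35.8% of bases, flavopiridol regions 21.1% and 24h GSK126 regions 18.3%. Flavopiridol cover was not below 24h cover in every stretch. It was 23.4% in the chromosome 4 stretch and 42.3% against 39.9% at 24h between Slc10a2 and Efnb2. Between Adam34l and Fat1 it was 79.3%, and between Kif2b and Car10 28.4%.

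The same DNA can be read without choosing members, as the share of all bases 10 kb or more from genes (854 Mb, between the first and last gene of each autosome) inside regions of each list. That share was 8.95% at 0h, 11.4% at 6h, 15.0% at 24h and 16.1% at 5d. It was 12.7% with flavopiridol, 10.6% at 6h GSK126, 14.9% at 24h GSK126 and 8.10% for H2A.Z. Inside genes (1189 Mb) the order of the times was different: 6.24% at 0h, 17.2% at 6h, 11.9% at 24h and 10.7% at 5d, with 15.5% under flavopiridol. Within 10 kb of genes (399 Mb) the shares were 12.5%, 19.5%, 22.8% and 20.9% at these times, with 22.5% under flavopiridol. The rise from 6h to 24h was thus shared by DNA close to genes, while the further rise at 5d was not. The 24h share away from genes was above the 6h share and above the flavopiridol share on 19 of 19 autosomes. The 5d share was above the 24h share on 14 and below it on 5. The 6h share was above the 0h share on 16 and below it on 3. Without chromosomes 8, 15 and 17 the shares away from genes were 6.84% at 0h, 10.1% at 6h, 13.1% at 24h, 13.9% at 5d and 11.1% under flavopiridol. With only regions at or above the median score of each list, the order of 6h, 24h and flavopiridol was 7.43%, 8.22% and 7.38%.

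**Figure D4:**
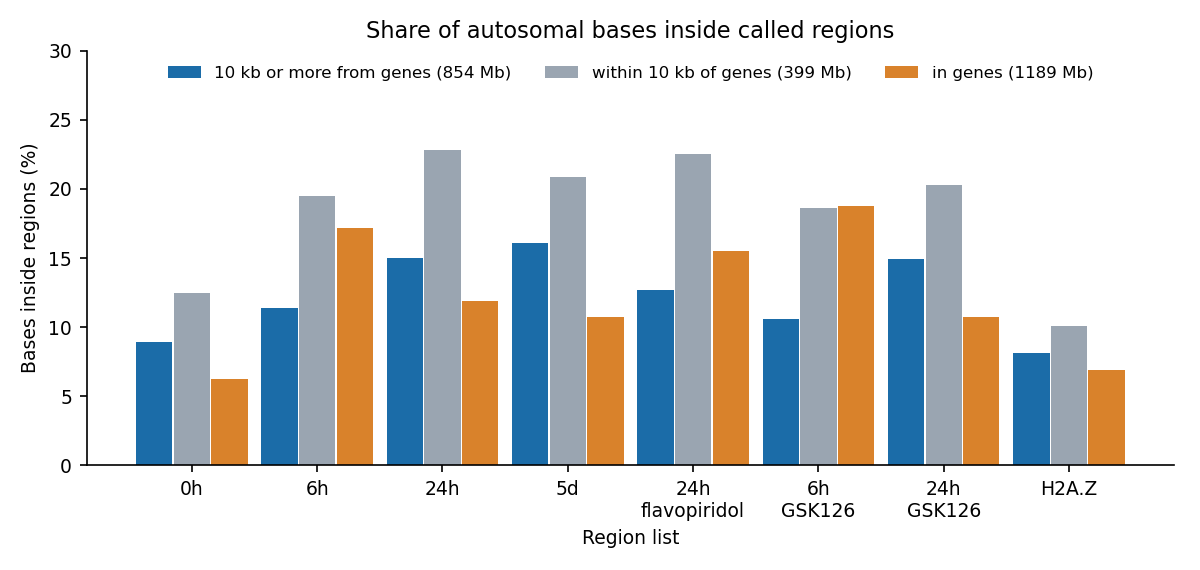
Percent of autosomal bases inside called regions (y axis) for each list (x axis), in DNA 10 kb or more from genes, within 10 kb of genes and in genes. Away from genes the bars are 11.4% at 6h, 15.0% at 24h and 16.1% at 5d, and in genes they are 17.2%, 11.9% and 10.7%. Within 10 kb of genes they are 19.5%, 22.8% and 20.9%.

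MacroH2A2 cover of this DNA was higher where the nearest protein-coding gene had more RNA. The classes rest on a gene's mean level at 0h: below 0.1 CPM is silent, from there to 1 CPM low, on to 10 CPM medium, and anything above that high. In DNA nearest to silent genes (355 Mb) 24h regions covered 6.95% of bases, and nearest to low, medium and high genes 17.8%, 20.4% and 23.4%. The order was the same at 0h, from 4.06% to 14.1%, at 5d, from 7.87% to 24.3%, and under flavopiridol, from 6.04% to 19.5%. H2A.Z cover was between 7.57% and 9.08% in the 4 classes. The order also held for DNA under 50 kb from the nearest protein-coding gene, where 24h cover was 11.1% beside silent and 36.3% beside high genes, and at 200 kb or more, where it was 4.04% and 15.2%. The 0h library, made without doxycycline, moves with the same classes. Its part in the order was not tested.

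**Figure D5:**
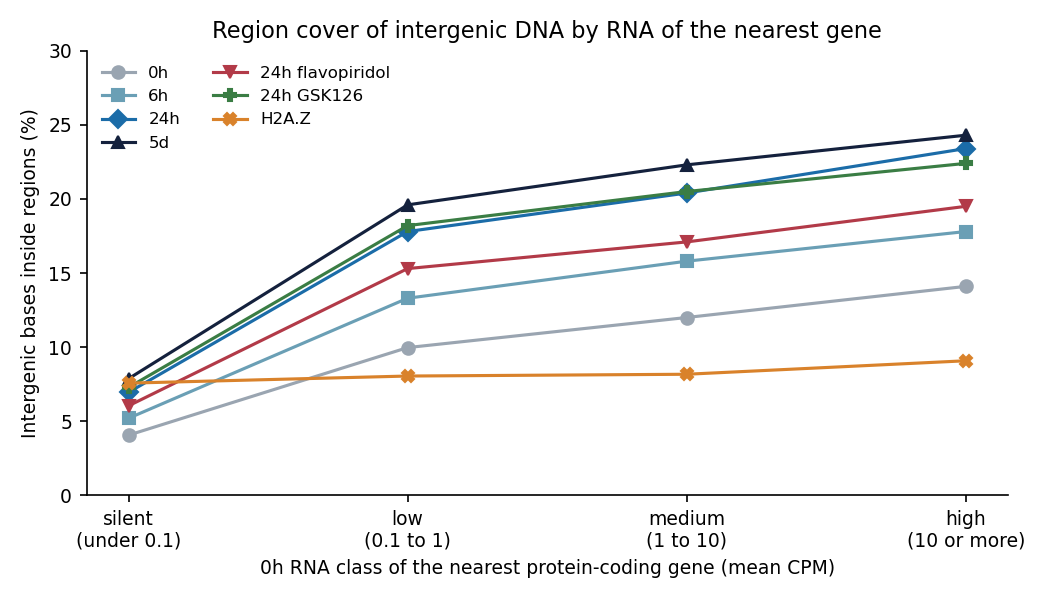
Percent of bases 10 kb or more from genes that lie inside regions (y axis) by the 0h RNA class of the nearest protein-coding gene (x axis, mean CPM), with 1 line for each list except the broad 5d and 6h GSK126 lists. All 6 macroH2A2 lines drawn are higher beside high than beside silent genes, at 24h 23.4% against 6.95%, and the H2A.Z line stays between 7.57% and 9.08%.

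By the nearest protein-coding gene, the shares of regions touching the later lists were close between the classes. A 5d region touched 88.1% of the intergenic regions nearest to silent genes and 87.5% of those nearest to high genes, and a flavopiridol region touched 68.3% and 68.8%. By the nearest gene of any biotype, a 5d region touched 89.5% beside silent and 84.1% beside high genes. A high gene was the nearest protein-coding gene of 6667 (55.8%) intergenic regions and of 325 of the 854 Mb away from genes. A silent gene was nearest to 2560 (21.4%) of the regions and to 355 Mb.

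Gene families grouped by symbol differed in the cover of the DNA nearest to them. Beside olfactory receptor genes, which fibroblasts rarely transcribe, 24h regions covered 1.83% of 8.83 Mb, and beside vomeronasal receptor genes, which detect pheromones, 2.11% of 6.13 Mb. Beside synaptic adhesion genes they covered 1.14% of 16.3 Mb, beside cadherin and protocadherin genes 6.22%, beside glutamate receptor genes 7.20% and beside potassium channel genes 10.9%. Beside developmental transcription factor genes the cover was 13.6%, near the 15.8% of all genes outside the families. It was 21.9% beside zinc finger genes, 30.1% beside semaphorin and ephrin pathway genes, which guide cell migration, and 33.9% beside collagen genes, which make the fibroblast's matrix. Collagen genes had only 2.06 Mb and 80 intergenic regions. Families were told apart by symbol patterns, and their H2A.Z cover was between 4.39% and 8.63%.

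RNA of the nearest genes was compared between times in 1 edgeR fit over the 9 libraries and 13785 genes, with calls at an adjusted p under 0.05. The intergenic regions had 4776 nearest genes, of which 2989 had an RNA identifier and 1318 passed the filter on low counts. At 6h 595 of the 1318 (45.1%) were called, against 39.0% of all genes tested. Of these 322 rose (24.4%, against 20.8% of all) and 273 fell (20.7%, against 18.2%). Their median log2 change was 0.004, against 0.007 over all genes, and 61 of the calls were 1.5-fold or more, as were 442 over all 13785 genes. At 24h 88 (6.68%) were called, against 7.04% of all genes tested. Of these 42 rose (3.19%, against 4.17% of all) and 46 fell (3.49%, against 2.87%), and 3 of the calls were 1.5-fold or more, as were 39 over all genes. Leaving out 1 library took the 24h count of 88 down to 45 (without replicate 2 of 0h), 47 (without replicate 1 of 0h), 50 (without replicate 3 of 24h) or 52 (without replicate 2 of 24h). The labels of the RNA libraries call them replicates of a time, and p-values measure only the spread between them.

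Of the 5 nearest genes with the largest increase at 6h, Postn, which encodes the matrix protein periostin and had 3 intergenic regions nearest to it, had 9.21, 9.78 and 10.5 CPM at 0h, 27.0, 28.6 and 28.9 at 6h, and 8.27, 9.16 and 9.05 at 24h. The 6h libraries were all above both other times, with a log2 increase of 1.52 ± 0.063 (SE, n = 3 against 3, edgeR adjusted p = 3.64e-17). Has2, a hyaluronan synthase gene with a 59.6 kb region as its widest, had 54.1, 56.4 and 53.6 CPM at 0h, 149, 160.1 and 145 at 6h, and 53.1, 53.1 and 54.2 at 24h (log2 increase at 6h 1.47 ± 0.035, edgeR adjusted p = 1.62e-22). Both genes were back in the range of the 0h libraries or just below it at 24h. Sema7a, a semaphorin gene, and Arl4d, a small GTPase gene, rose by 1.29 and 1.21 on the log2 scale. Lrrc4c, a synaptic adhesion gene with 14 regions nearest to it, rose from 9.10, 9.93 and 9.70 CPM at 0h to 20.1, 19.8 and 21.7 at 6h, without overlap.

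Genes that fell at 6h included Adamts1, a secreted metalloprotease gene with 4 regions nearest to it. It had 146, 139 and 141 CPM at 0h, 69.7, 68.8 and 68.1 at 6h, and 129.9, 126 and 123 at 24h, and the groups of 0h and 6h did not overlap (log2 change -1.04 ± 0.030, edgeR adjusted p = 9.58e-21). Hlf, a circadian transcription factor gene, had a log2 change of -1.25 at 6h. Fos fell from 5.47, 4.15 and 4.70 CPM at 0h to 2.20, 2.01 and 3.01 at 6h, again without overlap. Gm3716, a lncRNA gene, and Lpin1, a lipid phosphatase gene with 6 regions nearest to it, both had log2 changes of -0.93.

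At 24h the named changes were small. Tmsb10, a thymosin gene, had 151, 146 and 152 CPM at 0h and 179, 182 and 198 at 24h, without overlap (log2 change 0.32 ± 0.034, edgeR adjusted p = 2.02e-07). Tnfrsf21, a death receptor gene with 3 regions nearest to it, had 19.2 ± 0.629 CPM (SD, n = 3) at 0h and 15.1 ± 0.739 at 24h (log2 change -0.35 ± 0.057, edgeR adjusted p = 1.59e-04). Fos and Fosb, which encode parts of the AP-1 transcription factor, had log2 changes of -0.59 and -0.45 at 24h, and the edgeR adjusted p of Fos, 0.00791, reached 0.0810 under the alternatives. Unc5c, a netrin receptor gene, had a log2 change of -0.31. Dcn, the gene of the matrix proteoglycan decorin, had 1.85, 1.30 and 2.29 CPM at 0h and 1.08, 1.19 and 1.13 at 24h (log2 change -0.68 ± 0.21, edgeR adjusted p = 0.0438, up to 0.257 under the alternatives). Lars2, with the largest log2 increase of 0.54 at 24h, had 213, 236 and 212 CPM at 0h and 216, 358 and 389 at 24h, so its groups overlapped, and its edgeR adjusted p of 0.0472 reached 0.422 under the alternatives. Lsm3 rose by 0.40 on the log2 scale. The lncRNA gene Gm6634 and the pseudogene Atp6v0c-ps2 had log2 changes of 0.35 and 0.30, with edgeR adjusted p of 0.0338 and 0.00957 that reached 0.138 and 0.116 under the alternatives.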

How the data were processed

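Per the submitters' processing notes, Bowtie 1.1.2, SICER 1.1 and STAR 2.5.2b were used with GRCm38. The build of the H2A.Z list is not given separately. The deposited region lists hold 1 whole-number score per region from the authors and another running number, which is not a measurement. The lists used had a window of 200 and a gap of 800 bases, with a caller threshold of 0.01. The authors' deposited RNA files hold raw counts per gene, of which the strand column with 96.6% or more of stranded counts was used.

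Region ends were read as inclusive. Distances, touching and coverage were computed in Python 3.11.15 (pandas 2.3.3, numpy 2.4.6) and tested on simulated intervals, with exact Clopper-Pearson intervals from scipy 1.17.1. RNA counts were fitted in R 4.3.3 by edgeR 4.0.16 with TMM scaling, filterByExpr and its quasi-likelihood test, with the time as the only term, tested on simulated data, with Benjamini-Hochberg adjustment. RNA was matched to RefSeq genes by symbol, for 69.3% of 47042 autosomal genes and 94.8% of protein-coding ones. Levels for the RNA classes are plain CPM. Reads not assigned to genes were 21.2 to 23.1% per RNA library. The input library was not used.

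Regions named are the 10 widest, the 10 with the highest score, the 5 farthest from genes, the 5 widest of each group missing a call, the 3 on each side of the distance limit and the 10 stretches with most regions; of each, a few are printed. Named genes are, per contrast, the 5 largest changes each way among called nearest genes that averaged at least 1 CPM. The members, lists and rules were chosen with earlier results of these data known. Figures were drawn with matplotlib 3.10.9.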

Additional observations from a re-analysis of the deposited data

How the results depend on the processing

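The number of intergenic regions was 4023 with a distance of 50 kb, 20876 with only protein-coding genes counted and 5405 with only 24h regions at or above the median score, each by construction; their median width was then 5.60, 5.40 and 5.00 kb, and 5.00 kb without chromosomes 8, 15 and 17, an alternative chosen after seeing the data, as it is below. Shares touching a list moved past their counting interval as follows. With a distance of 5 kb they were 74.3% for 6h, 86.9% for 5d, 88.8% for the broad 5d settings and 74.5% for 6h GSK126. With 50 kb they were 52.8% for 0h, 79.7% for 6h, 91.3% for 5d, 91.8% for broad 5d and 77.1% for 6h GSK126. With only protein-coding genes counted they were 86.8% for 5d, 89.2% for broad 5d, 70.0% for flavopiridol and 25.3% for H2A.Z. With only 24h regions at or above the median score they were 57.9% for 0h, 87.2% for 6h, 89.5% for 5d, 78.9% for flavopiridol, 87.3% for 6h GSK126, 87.9% for 24h GSK126 and 25.6% for H2A.Z. Without chromosomes 8, 15 and 17 they were 47.6% for 0h, 76.3% for 6h, 87.1% for 5d, 89.2% for broad 5d and 76.2% for 6h GSK126. With 50% or more of the region covered they were 38.4% for 0h, 60.7% for 6h, 81.2% for 5d, 88.7% for broad 5d, 61.1% for flavopiridol, 54.5% for 6h GSK126, 73.5% for 24h GSK126 and 7.16% for H2A.Z. With only regions of the other list at or above its median score they were 48.7% for 6h, 37.9% for flavopiridol, 55.6% for 6h GSK126, 47.1% for 24h GSK126 and 12.1% for H2A.Z. Over intergenic regions that touch no 0h region they were 60.5% for 6h, 78.0% for 5d, 82.0% for broad 5d, 51.7% for flavopiridol, 62.0% for 6h GSK126, 68.1% for 24h GSK126 and 18.0% for H2A.Z.

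Against the other 24h regions, treated the same way, the 5d share was higher by 6.71 points or more under the 7 alternatives that could change it (the median score of the 5d list is 1, so that limit removes none of its regions), and the flavopiridol difference was -13.2 to -6.41 points. The 24h GSK126 difference was 0.173 points with only its regions at or above the median score. The H2A.Z share was 7.16% against 7.09% with 50% or more covered. The 6h difference of -1.48 points was 3.58 points at 50 kb and 0.781 points at the median score, so its direction was not kept. The 6h GSK126 difference of -3.16 points was 0.317 points at the median score, and the 0h difference of 0.401 points was -0.668 points at 5 kb. The cause of these moves was not tested.

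The share of bases covered at 24h was 10.5% at 50 kb, 16.98% with only protein-coding genes, 8.22% at the median score and 13.1% without chromosomes 8, 15 and 17. The 595 nearest genes called at 6h were 992, and the 88 called at 24h were 143, with the nearest protein-coding gene. Leaving out each RNA library in turn gave 531 to 610 calls at 6h and 45 to 119 at 24h. DESeq2, RLE size factors, no filter, only the 6 libraries and unstranded counts gave 539 to 613 at 6h and 71 to 92 at 24h. The replicate block gave 602 and 96; same-numbered libraries had correlations of -0.02 to 0.04, so the numbers do not pair them. The ChIP lists have 1 library each, and region depth was not used here.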
